A study of Mus musculus with 6 samples.

Results

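The genes described here are 39 genes of the cell cycle, picked by symbol from a list of proliferation genes. This list and the wider lists below were chosen with earlier results of these data known. All 39 genes were found among the 55023 genes of the deposited count table. They fall into 14 genes of S phase (DNA replication and its onset) and 25 genes of mitosis (chromosome segregation and cell division). RNA sequencing was done on mouse bone marrow-derived macrophages, cells grown from marrow precursors, in 6 libraries. The 3 groups of 2 libraries each received vehicle, LTα1β2 alone, or LCL161 together with LTα1β2, and every culture was treated for 24 h. LTα1β2 is membrane-type lymphotoxin, a TNF family ligand of the lymphotoxin β receptor, and LCL161 is a small molecule that antagonises the ubiquitin ligases cIAP1 and cIAP2. There was no group with LCL161 by itself, so the LCL161 step was read only on top of LTα1β2. The sources used here give no strain, age or dose and no growth factor for the cultures. The labels do not say whether the 2 libraries of a group came from separate animals or cultures, so p-values measure only how far these libraries differ, and that spread may be technical.

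Cells enter S phase when cyclin-dependent kinases inactivate the retinoblastoma family and release E2F transcription factors, which switch on the genes for origin licensing, the MCM helicase and nucleotide supply. Later in the cycle a second wave of transcription, carried by B-MYB, FOXM1 and the MuvB complex, supplies the cyclins, kinases, motors and kinetochore proteins of mitosis. The promoters of mitotic genes often hold a cell cycle homology region (CHR) near CCAAT boxes bound by NF-Y, whereas promoters of replication genes often hold E2F sites. Macrophages grown from marrow divide in response to growth factors and commonly leave the cycle on inflammatory activation.

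The promoters below are shown because the CHR and E2F sites divide the S-phase from the mitotic genes in part, by sequence and not by expression. Each is a stretch of 160 bases upstream of the RefSeq transcription start, from the RefSeq promoter windows of GRCm38.p6, written 5′ to 3′ on the strand of the gene. In the GENCODE M21 annotation the last 26 bases of the Cdk1 stretch, with its second CHR, and the last 9 of the Cdc20 stretch, with its second CCAAT box, lie within an exon of the gene. Capitals mark 3 motifs, each searched on both strands. The CHR was searched as TTTGAA. The second motif, the CCAAT box, reads ATTGG where it lies on the other strand. The E2F site was searched in 4 forms, TTTCGCGC, TTTGGCGC, TTTCCCGC and TTTGCCGC, and reads GCGGGAAA in Cdc6, where it lies on the other strand. In Mcm5 an E2F site on each strand overlaps the other and the pair forms the run TTTCGCGCCAAA. The first 4 are mitotic genes: Ccnb2 (cyclin B2), Cdc20 (activator of the anaphase-promoting complex), Cdk1 (the mitotic kinase) and Mki67 (the Ki-67 protein that coats mitotic chromosomes). The other 3 are S-phase genes: Cdc6, which loads the MCM helicase, and the helicase subunits Mcm5 and Mcm2.
Ccnb2 (chr9:70421555-70421714, minus strand): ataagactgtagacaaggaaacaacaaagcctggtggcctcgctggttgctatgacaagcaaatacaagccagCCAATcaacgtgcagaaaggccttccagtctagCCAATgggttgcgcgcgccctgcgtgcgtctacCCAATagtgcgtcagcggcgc
Cdc20 (chr4:118437344-118437503, minus strand): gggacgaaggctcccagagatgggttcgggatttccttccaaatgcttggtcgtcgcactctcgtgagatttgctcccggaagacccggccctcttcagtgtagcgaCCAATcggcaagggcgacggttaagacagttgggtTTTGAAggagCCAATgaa
Cdk1 (chr10:69352913-69353072, minus strand): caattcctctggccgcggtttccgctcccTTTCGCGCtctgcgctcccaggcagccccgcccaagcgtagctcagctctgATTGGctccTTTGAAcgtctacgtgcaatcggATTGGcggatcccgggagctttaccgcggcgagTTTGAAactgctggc
Mki67 (chr7:135716380-135716539, minus strand): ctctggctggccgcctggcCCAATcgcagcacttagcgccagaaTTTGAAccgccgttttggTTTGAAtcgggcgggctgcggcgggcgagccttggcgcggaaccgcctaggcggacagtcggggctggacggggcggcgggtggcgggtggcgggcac
Cdc6 (chr11:98907991-98908150, plus strand): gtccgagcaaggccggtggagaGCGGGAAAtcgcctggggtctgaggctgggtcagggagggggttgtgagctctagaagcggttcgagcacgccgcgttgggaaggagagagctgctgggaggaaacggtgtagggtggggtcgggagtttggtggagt
Mcm5 (chr8:75109349-75109508, plus strand): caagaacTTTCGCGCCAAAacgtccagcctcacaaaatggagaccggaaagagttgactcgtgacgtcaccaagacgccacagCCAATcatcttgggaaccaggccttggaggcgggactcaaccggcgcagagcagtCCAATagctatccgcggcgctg
Mcm2 (chr6:88898781-88898940, minus strand): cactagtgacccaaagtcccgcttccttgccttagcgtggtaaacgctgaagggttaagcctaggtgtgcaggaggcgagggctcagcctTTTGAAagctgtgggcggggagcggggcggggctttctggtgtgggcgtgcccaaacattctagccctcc

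Among these, the Cdk1 stretch held all 3 kinds of motif, and the Mcm2 stretch held a CHR and no E2F site. The Ccnb2 stretch held CCAAT boxes only. The CHR matches of Ccnb2, at -167 and 5 bases from the start, lay outside the stretch but within the whole window. Over the whole windows, from 250 bases before to 50 bases after the start, 32 of the 39 genes had an entry, and Ccne2, Mcm4, Ccna2, Foxm1, Tpx2, Kif20a and Aurkb had none. A CHR was present in 15 of 20 mitotic genes (75.0%) and in 1 of 12 S-phase genes (8.3%, Mcm2), beside 20.2% of the 27025 genes in the promoter table. E2F sites showed the opposite split, with 6 of 12 S-phase genes (50%: Cdc6, Cdt1, Mcm3, Mcm5, Mcm6 and Mcm7), 1 of 20 mitotic genes (5.0%, Cdk1) and 2.6% of all genes. CCAAT boxes separated the classes less, at 80.0% of mitotic and 58.3% of S-phase genes beside 41.1% of all genes. CHR and CCAAT box occurred together in 13 of 20 mitotic genes (65.0%) and 8.97% of all genes. The wider lists of other mitotic and other replication genes, described further on, gave shares of 69.0% and 13.8% for the CHR and of 9.5% and 44.8% for E2F sites. These are matches of letters in a window, not measured binding.

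**Figure D1:**
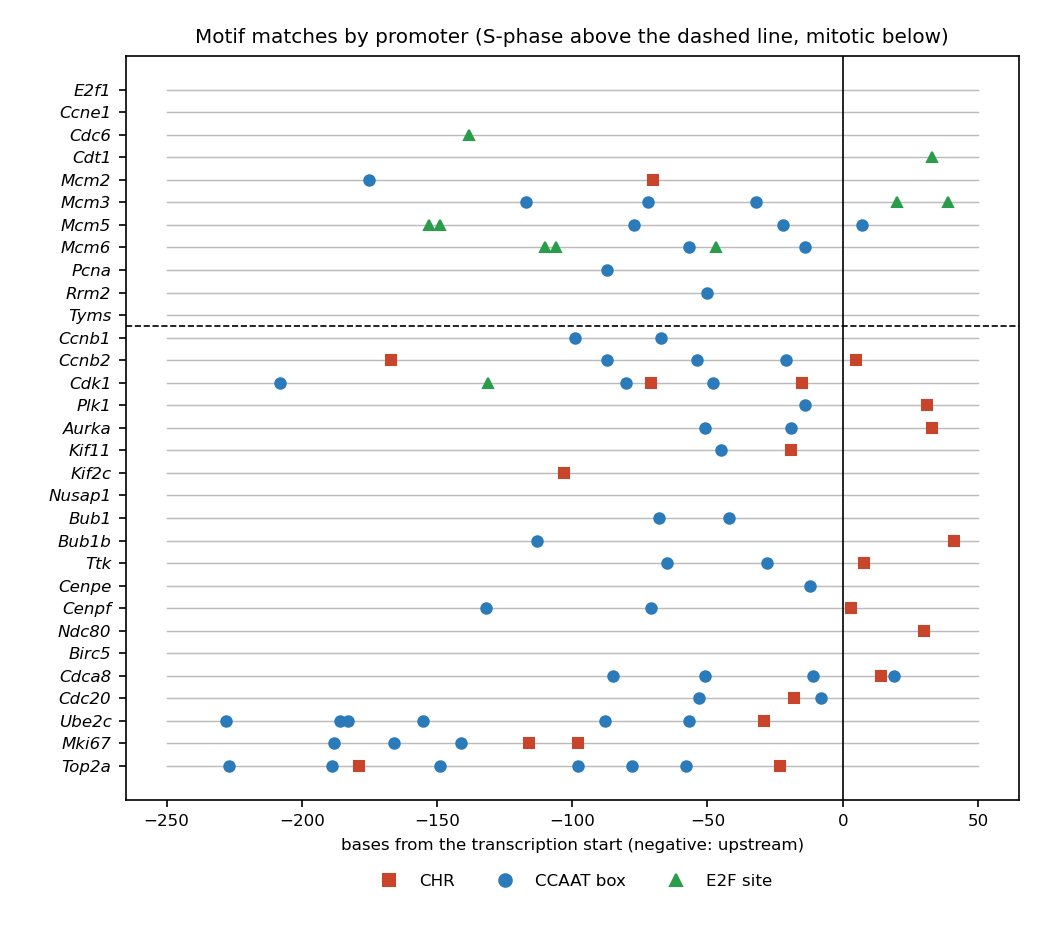
Positions of motif matches (x axis, bases from the transcription start, negative upstream) in the RefSeq window of each gene with a single window, with 11 S-phase genes above the dashed line and 20 mitotic genes below. Squares mark CHR, circles CCAAT boxes and triangles E2F sites; squares lie almost entirely below the dashed line and triangles above it, with Mcm2 and Cdk1 the exceptions. Mcm7, which has 2 windows, is not drawn.

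Levels are CPM, reads per fixed depth of sequencing, on library sizes scaled by TMM factors, which correct for a few abundant genes taking up reads. The total count per library was 14718368 to 19049613, and all 39 genes passed the filter on low counts, with 32 to 5018.5 reads per gene and library (2.45 to 249.8 CPM). Changes were tested with edgeR's quasi-likelihood test over 18812 genes, with Benjamini-Hochberg adjustment over all of them and calls at an adjusted p under 0.05. Deposited counts can be fractions of a read, and 12 of the 39 genes had whole counts in every library. Exons of Mcm7, Foxm1 and Top2a overlap another gene on the same strand in the GENCODE M21 annotation, and those of Ccne2, Mcm7, Ccna2, Plk1, Kif20a, Nusap1, Cdca8, Cdc20 and Ube2c overlap a gene on the other strand. The sources used here do not say how such reads were assigned, so these 11 counts are less certain. All 11 macrophage markers were detected, and Lyz2, the most abundant of them, lay between 22310 and 28020 CPM in every library without passing the test in any comparison.

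**Figure D2:**
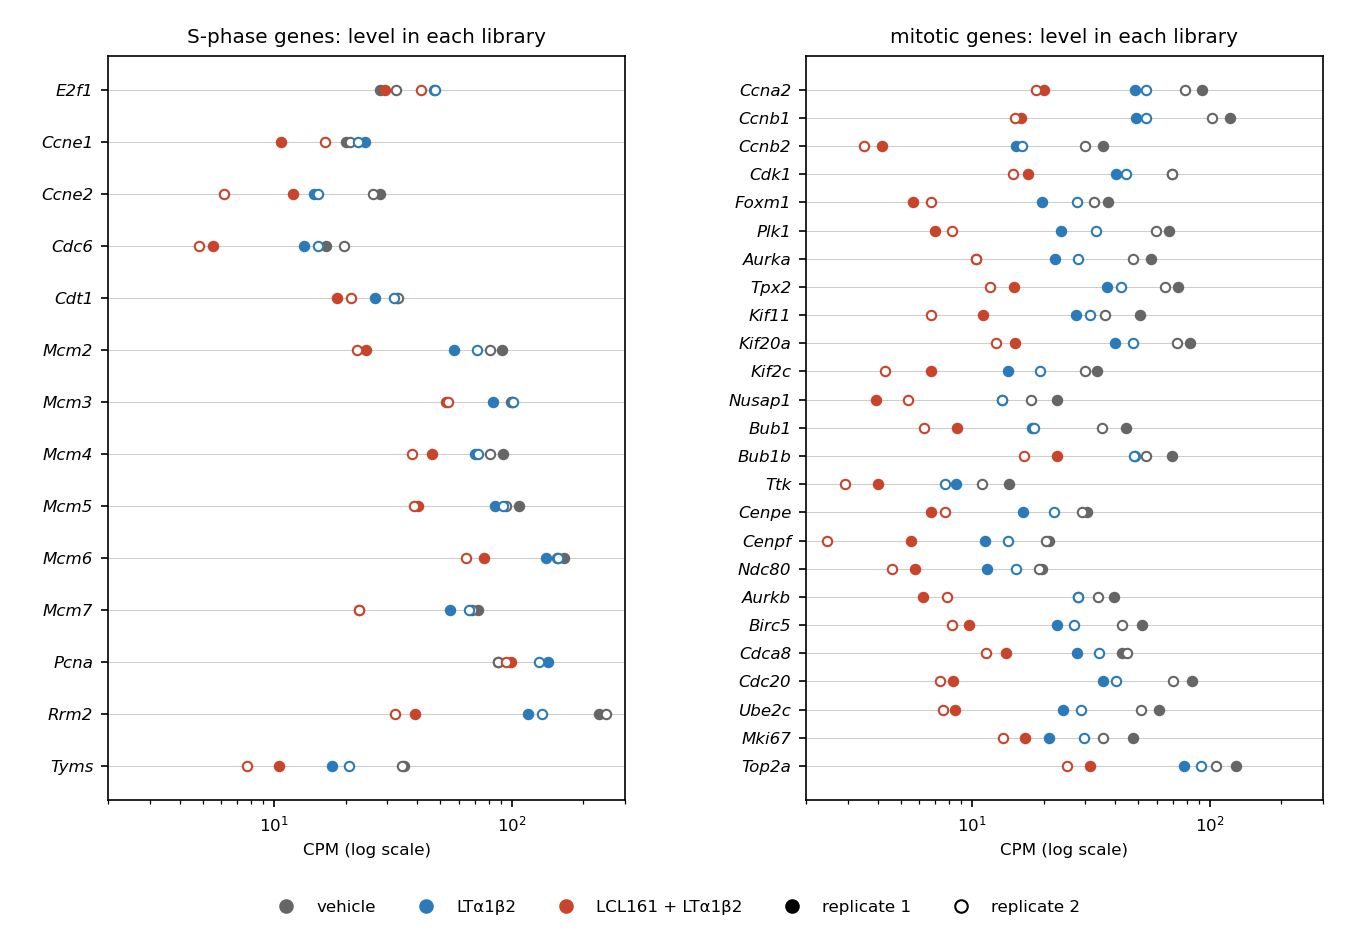
Level of each of the 39 genes in each library (x axis, CPM, log scale), S-phase genes on the left and mitotic genes on the right. Grey is vehicle, blue LTα1β2 and red LCL161 plus LTα1β2, with filled points for replicate 1 and open points for replicate 2. For the mitotic genes the 3 groups lie in the same order in each line, vehicle highest and LCL161 plus LTα1β2 lowest, while Pcna and E2f1 are highest with LTα1β2. The share of all genes in this order was not counted.

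With LTα1β2 alone, 5 of the 14 S-phase genes passed the test. E2f1 and Pcna rose, Ccne2, Rrm2 and Tyms fell, and 9 did not pass the test. The median change of the 14 was -0.20 on the log2 scale, beside -0.04 over all genes tested, of which 12.8% were called higher and 10.6% lower. With 2 of 14 higher and 3 of 14 lower, the class as a whole lay near these shares, so its genes are described singly.

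Among the regulators of the G1/S transition, E2f1, the E2F family member that drives replication genes, was at 27.9 and 32.5 CPM in vehicle and 47.2 and 47.5 CPM with LTα1β2. The groups did not overlap, and the rise was 0.65 ± 0.17 (SE) log2 units, 1.57-fold, with an edgeR adjusted p of 0.0286. That call rested on every library of the 2 groups: without any one of the 4, the edgeR adjusted p was 0.0713 to 0.211. Ccne1 and Ccne2 encode cyclins E1 and E2, the partners of CDK2 at the start of replication, and they did not move together. Ccne1 was at 20 and 20.9 CPM in vehicle and 24.1 and 22.6 CPM with LTα1β2 (change 0.19, 95% interval -0.24 to 0.62, edgeR adjusted p = 0.519). Ccne2 fell by 0.85 log2 units (edgeR adjusted p = 0.0441), from 27.9 and 26.1 to 14.68 and 15.3 CPM, a call also lost without any one of the 4 libraries.

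None of the 8 genes of origin licensing and the helicase passed the test with LTα1β2. Cdc6 and Cdt1 load the MCM complex onto origins, and Mcm2 to Mcm7 are the 6 subunits of that hexameric helicase. Their estimates all lay below 0, from -0.42 for Mcm2 to -0.12 for Mcm6 (edgeR adjusted p from 0.0563 to 0.545). Only Mcm2 had an unadjusted p under 0.05 (0.0138), and DESeq2 and limma voom called it lower (adjusted p = 0.0424 and 0.0386) and none of the other 7. Mcm2 was at 91.1 and 81.4 CPM in vehicle and 57.1 and 71.5 CPM with LTα1β2, groups that did not overlap. Mcm7 was at 72.4 and 68.2 CPM in vehicle and 54.8 and 66.2 CPM with LTα1β2, where the second library almost reached the vehicle range. The signs of Cdt1, Mcm3 and Mcm6 turned without LTα1β2 replicate 1, and the 95% interval of Mcm6 was -0.39 to 0.16. Scaling by total counts instead of TMM factors moved the median of all genes to -0.23 and called 4 of the 6 Mcm genes lower. It also raised the number of all 18812 genes called lower from 1991 to 3729.

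The genes of the sliding clamp and of nucleotide supply went in opposite directions with LTα1β2. Pcna, the ring that tethers polymerases to DNA, was at 87.9 and 88.0 CPM in vehicle and rose to 142 and 130 CPM, a change of 0.63 ± 0.10 log2 units or 1.55-fold (edgeR adjusted p = 0.00325). Rrm2, the S-phase subunit of ribonucleotide reductase, was at 232 and 249.8 CPM in vehicle and fell to 118 and 135 CPM, 1.91-fold lower (log2 -0.93 ± 0.12, edgeR adjusted p = 0.0018). Tyms, thymidylate synthase, fell by 0.87 log2 units (edgeR adjusted p = 0.00794), a call lost without LTα1β2 replicate 1 (adjusted p = 0.0865). Pcna stayed higher and Rrm2 lower past the threshold in each of the 14 alternative settings run.

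The mitotic genes fell with LTα1β2. Of the 25, 17 fell and none rose, beside 10.6% of all genes called lower, and all 25 estimates lay below 0 with a median of -0.72 log2 units. The 8 that did not pass the test were Foxm1, Kif11, Bub1b, Ttk, Cenpf, Ndc80, Aurkb and Top2a, with estimates from -0.69 to -0.35. Ccnb1, Ccnb2, Plk1, Aurka, Bub1, Birc5, Cdc20 and Ube2c passed in each of the 14 alternative settings. Leaving out 1 library lowered or raised the count of 17. Without LTα1β2 replicate 1 the calls of Cdk1 and Kif20a were among those lost, at log2 changes of -0.571 and -0.638. The LCL161 libraries enter this comparison only through the shared spread, the filter and the scaling, and the count rose without either. With total counts as the scale the count was 22, and the split of calls over all genes moved from 54.8% higher to 33.0% higher.

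Of the 7 genes of mitotic entry 6 fell. Ccnb1, cyclin B1, was at 122 and 102 CPM in vehicle and 49.0 and 53.7 CPM with LTα1β2, 2.18-fold lower (log2 -1.13 ± 0.12, edgeR adjusted p = 0.000634), although its counts were not whole in any library. Its partner kinase Cdk1 was at 69.5 and 69.7 CPM in vehicle and 40.3 and 44.4 CPM with LTα1β2 (log2 -0.72 ± 0.11, edgeR adjusted p = 0.00394). In both genes the vehicle libraries lay well above the treated ones. Ccnb2 (-1.05), Ccna2, cyclin A2 (-0.74), Plk1, the kinase that promotes spindle assembly (-1.16), and Aurka, the centrosomal Aurora kinase (-1.05), also fell. Foxm1, the forkhead factor of the mitotic programme, was at 37.5 and 32.5 CPM in vehicle and 19.8 and 27.7 CPM with LTα1β2, a change of -0.56 that did not pass the test (edgeR adjusted p = 0.0625).

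Of the 5 spindle genes 4 fell. Kif20a, a kinesin of cytokinesis, was at 83.0 and 73.0 CPM in vehicle and 40.1 and 47.5 CPM with LTα1β2 (log2 -0.83 ± 0.14, edgeR adjusted p = 0.00494). Kif2c, a microtubule depolymerase (-0.92), Tpx2, the activator of Aurora A (-0.80), and Nusap1, a spindle-bundling protein (-0.61), fell too, and Kif11, the bipolar spindle motor, was at -0.56 with an edgeR adjusted p of 0.125. The Nusap1 call was lost with the replicate number as a block (edgeR adjusted p = 0.0726) and without vehicle replicate 1 (0.307), LTα1β2 replicate 1 (0.224) or LTα1β2 replicate 2 (0.178). Those of Kif2c and Tpx2 were lost without vehicle replicate 1 (0.11 and 0.0559) or LTα1β2 replicate 1 (0.154 and 0.0704). Of the 6 kinetochore and checkpoint genes 2 passed the test. Bub1, a checkpoint kinase, was at 44.6 and 35.2 CPM in vehicle and 17.9 and 18.2 CPM with LTα1β2 (log2 -1.15 ± 0.17, edgeR adjusted p = 0.00328). Cenpe, a kinetochore motor, was at 30.3 and 29.1 CPM in vehicle and 16.5 and 22.0 CPM with LTα1β2 (log2 -0.62 ± 0.16, edgeR adjusted p = 0.0277). The Cenpe call was lost without either vehicle library and without LTα1β2 replicate 1, with edgeR adjusted p of 0.0976 to 0.24. Its neighbours Cenpf (-0.69), Ttk (-0.64), Ndc80 (-0.53) and Bub1b (-0.35) were below 0 without passing.

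In the chromosomal passenger complex, which corrects faulty spindle attachments, Birc5 (survivin) was at 51.8 and 42.8 CPM in vehicle and 22.7 and 26.8 CPM with LTα1β2 (log2 -0.93 ± 0.15, edgeR adjusted p = 0.0043). The kinase of the same complex, Aurkb, was at 39.4 and 34.0 CPM in vehicle and 27.9 and 27.9 CPM with LTα1β2 (log2 -0.40, 95% interval -0.72 to -0.07, edgeR adjusted p = 0.0784). The subunit Cdca8 (borealin) fell by 0.50 log2 units, a call lost with the replicate number as a block (edgeR adjusted p = 0.0605), with no filter beyond 1 read (0.075) and without any one of the 4 libraries (0.05 to 0.342). Subunits of a single complex thus differed in whether they passed the test, and the differences among them were not tested. Cdc20 was at 84.1 and 69.9 CPM in vehicle and 35.4 and 40.2 CPM with LTα1β2 (log2 -1.03 ± 0.13, edgeR adjusted p = 0.00161). Ube2c, the ubiquitin-conjugating enzyme that works with the same anaphase-promoting complex, fell by 1.09 log2 units.

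The common proliferation marker Mki67 was at 47.6 and 35.5 CPM in vehicle and 21.1 and 29.5 CPM with LTα1β2 (log2 -0.72 ± 0.21, edgeR adjusted p = 0.044). Its 2 vehicle libraries lay further apart than those of Cdk1, and the call was lost without vehicle replicate 1 (edgeR adjusted p = 0.277), without LTα1β2 replicate 1 (0.288) and with the replicate number as a block (0.0714). Top2a, the topoisomerase that untangles chromosomes, was at 129 and 106 CPM in vehicle and 78.1 and 92.3 CPM with LTα1β2 (log2 -0.46 ± 0.15, edgeR adjusted p = 0.0638).

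**Figure D3:**
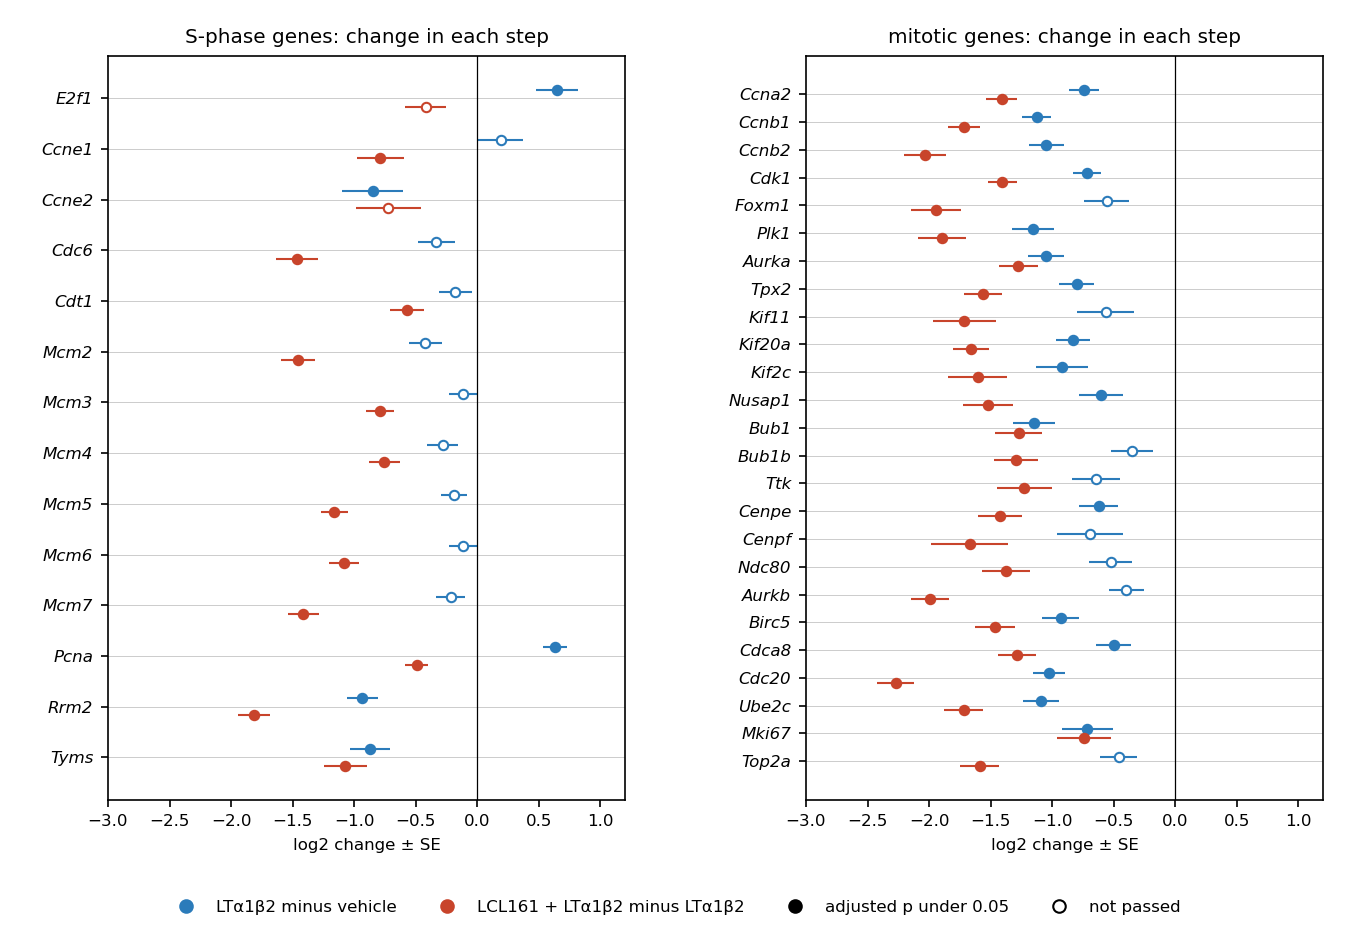
Log2 change ± SE of each gene (x axis) for LTα1β2 minus vehicle in blue and for LCL161 plus LTα1β2 minus LTα1β2 in red, S-phase genes on the left and mitotic genes on the right. Filled points passed an edgeR adjusted p under 0.05 and open points did not; both steps use the same LTα1β2 libraries. The blue points of the MCM genes are open, between -0.42 and -0.12, while their red points are filled, and every red point of the mitotic genes is filled and below 0.

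Adding LCL161 to LTα1β2 lowered both classes. Of the S-phase genes 12 of 14 fell, with a median of -0.93 log2 units, and all 25 mitotic genes fell, with a median of -1.56, beside 15.1% of all genes called lower, 10.6% called higher and a median of 0.00 over all genes. E2f1 and Ccne2 were the 2 that did not pass. Over the alternative settings the S-phase count was 10 to 14 and the mitotic count 24 or 25. Scaled by total counts, the median of all genes was -0.12 and the share of calls that were higher 28.0%, against 41.2% with TMM factors.

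E2f1 was at 29.4 and 41.4 CPM with LCL161 plus LTα1β2, so the 2 libraries spread from near the vehicle level to near the LTα1β2 level (log2 -0.42, 95% interval -0.81 to -0.03, edgeR adjusted p = 0.105). Ccne1, at 10.7 and 16.3 CPM, fell by 0.79 ± 0.19 log2 units (edgeR adjusted p = 0.0218), a call lost without LTα1β2 replicate 1 (0.064) or replicate 2 (0.0797). Ccne2 was at 11.97 and 6.13 CPM (log2 -0.72, edgeR adjusted p = 0.0825). For each of these 3 genes the 2 LCL161 libraries lay well apart, and E2f1 and Ccne1 were higher in the library where Ccne2 was lower.

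All 8 licensing and helicase genes fell in this step. Mcm2 was at 24.4 and 22.4 CPM, 2.74-fold lower than with LTα1β2 alone (log2 -1.46 ± 0.14, edgeR adjusted p = 0.000388). Mcm7 was at 22.8 and 22.7 CPM, 2.66-fold lower (log2 -1.41 ± 0.12, edgeR adjusted p = 0.000272). The subunits of the hexamer did not fall by equal amounts in these estimates, with Mcm5 at -1.16, Mcm6 at -1.08, Mcm3 at -0.79 and Mcm4 at -0.76, and the differences between subunits were not tested. Cdc6 fell by 1.47 and Cdt1 by 0.57 log2 units, and the Cdt1 call was lost without LCL161 replicate 1 (edgeR adjusted p = 0.0728) and without LTα1β2 replicate 2 (0.134).

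Pcna was at 99.2 and 94.4 CPM with LCL161 plus LTα1β2, between the vehicle and the LTα1β2 libraries, and fell by 0.49 ± 0.10 log2 units from LTα1β2 alone (edgeR adjusted p = 0.0085). Rrm2 was at 39.3 and 32.3 CPM, 3.52-fold lower (log2 -1.82 ± 0.13, edgeR adjusted p = 0.000128), the largest fall among the S-phase genes in this step. Tyms fell by 1.07 log2 units.

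Mitotic entry genes fell 7 of 7. Ccnb1 was at 16.1 and 15.1 CPM, 3.29-fold lower than with LTα1β2 alone (log2 -1.72 ± 0.13, edgeR adjusted p = 0.000148), and Cdk1 was at 17.1 and 14.9 CPM, 2.65-fold lower (log2 -1.40 ± 0.12, edgeR adjusted p = 0.000248). Foxm1, which had not passed with LTα1β2 alone, was at 5.62 and 6.74 CPM and fell by 1.94 log2 units. Ccnb2 (-2.03), Plk1 (-1.90), Ccna2 (-1.41) and Aurka (-1.28) fell as well.

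The spindle genes fell by 1.52 to 1.71 log2 units. Kif20a was at 15.2 and 12.6 CPM (log2 -1.66 ± 0.15, edgeR adjusted p = 0.000291). Kinetochore genes fell by 1.22 to 1.67 log2 units, with Bub1 at 8.61 and 6.28 CPM (log2 -1.27 ± 0.19, edgeR adjusted p = 0.00271) and Cenpe at 6.71 and 7.66 CPM (log2 -1.42 ± 0.18, edgeR adjusted p = 0.00114). Cenpf was at 5.54 and 2.45 CPM, and the ratio of its 2 libraries was the widest among the 6 genes.

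Aurkb, which had not passed with LTα1β2 alone, was at 6.202 and 7.81 CPM and fell 3.98-fold (log2 -1.99 ± 0.16, edgeR adjusted p = 0.000167). Birc5 was at 9.71 and 8.27 CPM (log2 -1.46 ± 0.16, edgeR adjusted p = 0.000707), and Cdca8 fell by 1.29 log2 units. Cdc20 was at 8.32 and 7.35 CPM, 4.82-fold lower (log2 -2.27 ± 0.15, edgeR adjusted p = 9.83e-05), the smallest p of the 39 genes in this step. Ube2c fell by 1.72 log2 units. Both partners of the anaphase-promoting complex therefore fell in both steps.

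Top2a was at 31.4 and 25.2 CPM (log2 -1.59 ± 0.16, edgeR adjusted p = 0.000436). Mki67 was at 16.8 and 13.5 CPM and had the smallest fall of the mitotic genes, 0.74 ± 0.22 log2 units (edgeR adjusted p = 0.0433). Its groups did not overlap, but the call was lost in 5 of the 14 alternative settings, with edgeR adjusted p of 0.218 without LTα1β2 replicate 2 and 0.103 without LCL161 replicate 2. It was also lost with the replicate number as a block (edgeR adjusted p = 0.0617).

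Against vehicle, LCL161 plus LTα1β2 lowered 12 of 14 S-phase genes (median -1.27 log2 units) and all 25 mitotic genes (median -2.36), beside 21.1% of all genes called lower, 18.4% called higher and a median of 0.05. This comparison shares its libraries with the other 2 and is given for the size of the total difference. Cdc20 was 9.82-fold lower (log2 -3.30 ± 0.15, edgeR adjusted p = 3.78e-06), Ccnb2 8.46-fold lower (-3.08 ± 0.17, 6.89e-06) and Plk1 8.30-fold lower (-3.05 ± 0.20, 1.55e-05). Rrm2 was 6.73-fold lower (log2 -2.75 ± 0.13, edgeR adjusted p = 4.78e-06), an estimate that lay within the range of the mitotic genes. Mki67 had the smallest mitotic difference, 2.74-fold lower (log2 -1.46 ± 0.22, edgeR adjusted p = 0.00135).

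E2f1 and Pcna did not pass against vehicle. E2f1 was 0.23 log2 units higher (95% interval -0.17 to 0.62, edgeR adjusted p = 0.314) and its groups overlapped. It passed as higher without LCL161 replicate 1 (0.44, edgeR adjusted p = 0.043) and was at -0.10 without LCL161 replicate 2. Pcna was 0.14 higher (95% interval -0.08 to 0.36, edgeR adjusted p = 0.28). The signs of both genes also turned when libraries were scaled by total counts, which moved the median of all genes to -0.26 and the share of calls that were higher from 46.6% to 24.6%. Ccne1 fell by 0.60 log2 units (edgeR adjusted p = 0.0412), and this call was lost without any one library except LCL161 replicate 2, with adjusted p of 0.0566 to 0.127.

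The balance between the classes can be read within each library, where the scaling of libraries cancels. Summed over the 25 mitotic genes and divided by the sum over the 14 S-phase genes, the ratio was 1.263 and 1.10 for vehicle. It was 0.786 and 0.834 for LTα1β2 alone and 0.575 and 0.517 when LCL161 was added. The 3 groups did not overlap. These sums are not per gene length, so the ratio is compared between libraries only. For the pair Ccnb1 and Pcna the ratio was 1.39 and 1.16, then 0.345 and 0.413, then 0.163 and 0.160. The mitotic sum itself was 1195 to 1400 CPM in vehicle, 702 to 816 CPM with LTα1β2 and 239.9 to 281 CPM with LCL161 plus LTα1β2. The S-phase sum was 1087 to 1109, 893 to 978 and 464 to 488 CPM.

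**Figure D4:**
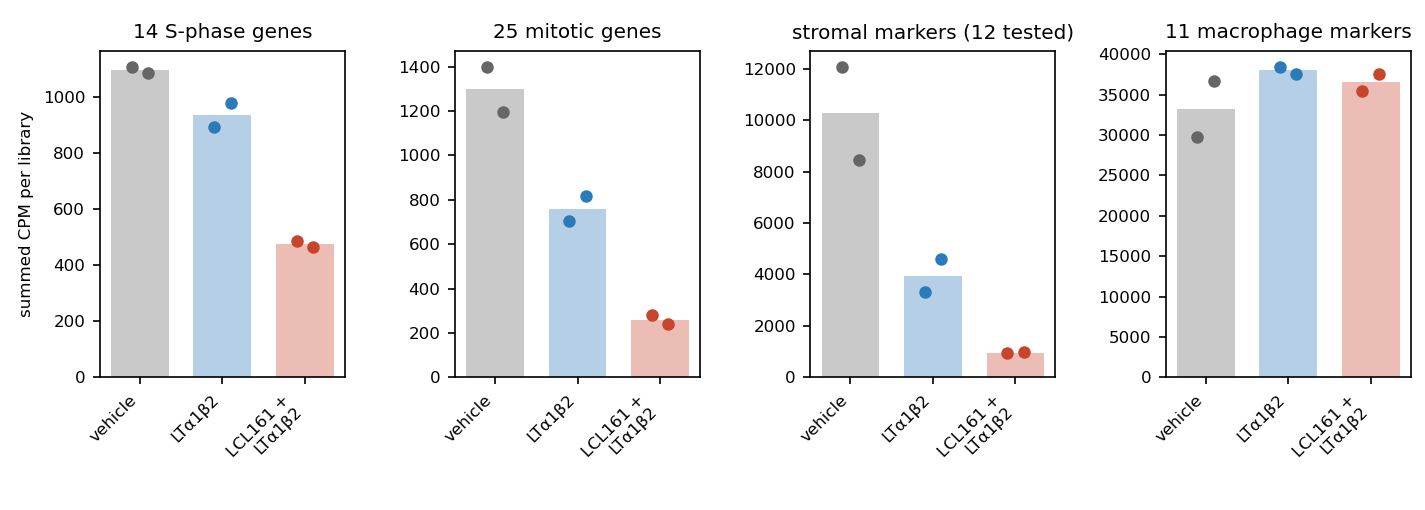
Summed CPM per library (y axis, starting at 0) over the 14 S-phase genes, the 25 mitotic genes, the 12 stromal markers that passed the filter and the 11 macrophage markers. Points are libraries and bars the mean of the 2 libraries of each group. The mitotic and stromal sums step down from vehicle to LTα1β2 to LCL161 plus LTα1β2, the S-phase sum is much lower only in the last group, and the macrophage sums of the treated groups lie near the upper vehicle library.

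Markers of marrow stroma moved with the cell cycle genes. Of 13 stromal markers 12 were tested. With LTα1β2 10 fell (median -1.34 log2 units), beside 10.6% of all genes called lower. When LCL161 was added 10 fell again (median -1.97), beside 15.1%. Dcn and Thy1 passed in neither step, and Lum had at most 3 reads in any library. The summed level of the 12 was 8466 to 12080 CPM in vehicle, 3304 to 4587 CPM with LTα1β2 and 933 to 972 CPM with LCL161 plus LTα1β2. Acta2, smooth muscle actin, was at 2804 and 2229, then 869 and 1131, then 264 and 242 CPM. The vehicle and LTα1β2 libraries with the higher stromal sums were also those with the higher mitotic sums, while the LCL161 libraries had the opposite order. The part of stromal cells in the cell cycle results was not tested, and in these bulk libraries fewer dividing cells and less RNA per cell cannot be told apart.

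Markers of other marrow cells differed as follows. Over all genes 12.8% were called higher and 10.6% lower with LTα1β2. When LCL161 was added these shares were 10.6% and 15.1%. Of 11 macrophage markers 8 rose and 1 fell with LTα1β2, and 3 rose and 6 fell when LCL161 was added, with sums of 29740 to 36670, 37570 to 38470 and 35430 to 37590 CPM. Of 10 markers of neutrophils and their precursors 9 were tested, 3 rose with LTα1β2 and 6 fell when LCL161 was added, with sums of 538 to 792, 816 to 1040 and 364 to 387 CPM. S100a8, the most abundant, was at 136 and 177, then 324 and 256, then 184 and 172 CPM. Precursors of this lineage divide, and their part in the result was not tested either. Lists for progenitors, T and NK cells, B cells, erythroid cells, mast cells and basophils, and endothelium summed to at most 17.2 CPM in any library. In these lists Cd34 was at 4.81 and 4.86, then 8.36 and 6.63, then 2.48 and 1.53 CPM, and Kdr reached 12.4 CPM. Cd4, Cd79b, Hba-a1 and Mcpt8 stayed at or below 10.8 CPM, Cd8a had no read in 5 of the 6 libraries, and 9 of the 30 genes did not pass the filter.

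Lists of further cell cycle genes were read in the same fit. Of 41 other replication genes (such as those of origin recognition, GINS, polymerases, the clamp loader and repair), 4 rose and 6 fell with LTα1β2, with a median of -0.23 log2 units, near the shares over all genes (12.8% higher and 10.6% lower). Rfc2, a subunit of the complex that loads PCNA, rose from 81.2 and 85.3 to 119 and 122 CPM (log2 0.53 ± 0.10, edgeR adjusted p = 0.00695), and Rfc5, Fen1 and Usp1, named after their values were seen, were the other 3 that rose. Rrm1, the large subunit of ribonucleotide reductase, fell by 0.58 log2 units (edgeR adjusted p = 0.00962), and Orc6, an origin recognition subunit, by 0.64 (edgeR adjusted p = 0.0116). The other clamp loader genes of the list did not pass the test, with Rfc3 at 0.14 (edgeR adjusted p = 0.447) and Rfc4 at -0.30 (edgeR adjusted p = 0.161), both named after their values were seen.

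With LCL161 added, 26 of the 41 fell and none rose (median -0.64), beside 15.1% of all genes called lower. Uhrf1, which carries DNA methylation through replication, was at 57.1 and 59.6 CPM with LTα1β2 and 24.1 and 26.3 CPM with both agents (2.31-fold lower, edgeR adjusted p = 0.000294). Gmnn, the inhibitor of relicensing, and Lig1, the ligase that joins Okazaki fragments, fell 2.46-fold and 2.96-fold. Against vehicle 32 of 41 fell, beside 21.1% of all genes, Mcm10 by 3.47-fold among them, and Rfc2 alone rose (0.31 log2 units, edgeR adjusted p = 0.037).

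Of 51 other mitotic genes 34 fell and none rose with LTα1β2 (median -0.67), beside 10.6% of all genes called lower. When LCL161 was added 47 fell and none rose (median -1.40), beside 15.1% called lower. Anln, anillin of the cleavage furrow, was at 111 and 97.3, then 46.4 and 53.7, then 12.7 and 12.9 CPM, and it had the smallest p of the list in each comparison. Hmmr and the kinesin Kif18b fell 2.05-fold and 1.97-fold with LTα1β2, and the kinesin Kif22 and the condensin subunit Ncapd2 fell 3.32-fold and 3.33-fold when LCL161 was added. The 4 that did not pass in the LCL161 step were Bub3, Cdc25c, Pttg1 and Trip13, named after their values were seen. Against vehicle 48 of 51 fell, beside 21.1% of all genes. Bub3 and Trip13 did not pass, and Pttg1 (securin, the anaphase inhibitor) rose by 0.34 log2 units.

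Of 12 genes of G1 cyclins, kinases and growth inputs, upstream of S phase, 2 rose and 4 fell with LTα1β2, beside 12.8% and 10.6% over all genes. The 2 that rose were E2f2 and the growth input Csf1r (0.49 log2 units, edgeR adjusted p = 0.0215). Csf1r, named after its values were seen, is also counted among the macrophage markers above. With LCL161 added 1 rose and 7 fell, beside 10.6% and 15.1%. The numbers that rose were near the shares over all genes in both steps. E2f2, an activating E2F, was at 7.22 and 7.51 CPM in vehicle, 16.3 and 15.0 CPM with LTα1β2 and 2.41 and 2.30 CPM with both agents. It rose 2.13-fold (edgeR adjusted p = 0.00162) and then fell 6.64-fold (edgeR adjusted p = 6.86e-05). Like Pcna it was highest with LTα1β2, but with both agents it lay below vehicle. Ccnd2, cyclin D2, fell in each step, from 149 and 118 to 48.2 and 68.1 and then to 26.1 and 25.1 CPM. Myc fell in each step as well, from 71.2 and 61.8 to 33.3 and 46.1 and then to 25.3 and 24.7 CPM (edgeR adjusted p = 0.0148 and 0.0244). Ccnd3, cyclin D3, fell 2.04-fold in the LCL161 step, where the G1 kinase Cdk6 went the other way, from 15.8 and 17.2 to 30.9 and 30.6 CPM (1.86-fold higher, edgeR adjusted p = 0.00147).

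A further list held 28 CDK inhibitors, pocket proteins, other brakes and related regulators, with Mdm2 and Fbxo5 among the last. Of these 27 were tested, and Cdkn2a, with at most 8 reads, was not. With LTα1β2 3 rose and 4 fell, near the shares over all genes (12.8% higher and 10.6% lower). Mxd1, an antagonist of Myc at its target sites, rose from 24.5 and 29.5 to 47.1 and 44.6 CPM (1.70-fold, edgeR adjusted p = 0.00431), Rbl1, a pocket protein, rose 1.503-fold, and Cdkn2b, an inhibitor of CDK4 and CDK6, fell 1.85-fold.

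With LCL161 added 5 of the 27 rose and 11 fell, beside 10.6% and 15.1% over all genes. Cdkn1a, the p53-inducible CDK inhibitor, was at 163 and 175 CPM in vehicle, 131 and 145 CPM with LTα1β2 and 473 and 542 CPM with both agents, 3.68-fold above LTα1β2 alone (log2 1.88 ± 0.11, edgeR adjusted p = 6.12e-05). Mxd1 rose to 145 and 162 CPM (3.35-fold, edgeR adjusted p = 0.000122), and Cdkn2b from 2.68 and 2.73 to 12.8 and 14.6 CPM (5.04-fold, edgeR adjusted p = 0.000158). In all 3 genes both LCL161 libraries lay above every other library, and the share of all genes with such an order was not counted. Mdm2, another p53 target, named after its values were seen, rose 2.19-fold, whereas Btg2, also a p53 target, fell 2.63-fold (edgeR adjusted p = 0.000428). The list did not rise as a group: Cdkn2c, Cdkn2d and Rb1, also named after their values were seen, fell by 1.63, 1.14 and 1.29 log2 units. Fbxo5, named in the same way, fell by 1.70 log2 units. Against vehicle 5 rose and 12 fell (18.4% and 21.1% over all genes), with Mxd1 5.69-fold and Cdkn1a 3.002-fold higher.

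**Figure D5:**
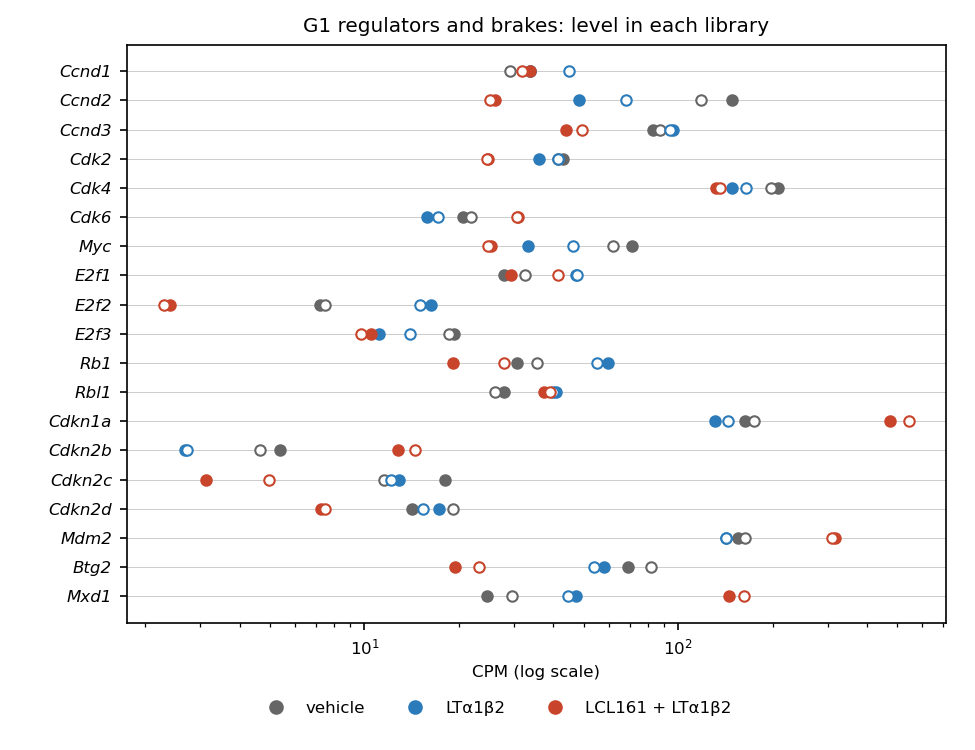
Level in each library (x axis, CPM, log scale) of 19 regulators of G1 and brakes of the cycle. These are a selection, with Rb1, Cdkn2c, Cdkn2d and Mdm2 named after their values were seen. Other genes of the lists, such as E2f4, Rbl2 and Trp53, are not drawn. Grey is vehicle, blue LTα1β2 and red LCL161 plus LTα1β2, with filled points for replicate 1 and open points for replicate 2. Cdk6, Cdkn1a, Cdkn2b, Mdm2 and Mxd1 have both red points to the right of all others. Ccnd2, Ccnd3, Cdk2, Cdk4, Myc, E2f2, E2f3, Rb1, Cdkn2c, Cdkn2d and Btg2 have both to the left. The shares of all genes with such positions were not counted.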

How the data were processed

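RNA-seq of 6 libraries was analysed in 3 groups of 2, taken from the sample titles. The submitters' processing notes name GRCm38, the aligner STAR (2.7.3a) and DESeq2 (1.26.0). The counting program, annotation and strand setting were not given in the sources used here. The deposited values are expected counts per gene symbol (66.6% of non-zero values whole), rounded here for the tests. Genes were filtered with filterByExpr (minimum 10 reads) and tested in edgeR 4.0.16 (R 4.3.3) with TMM factors and a group-means quasi-likelihood fit over all 6 libraries, two-sided, with 3 residual and 4.59 prior degrees of freedom and a biological coefficient of variation of 13.6%. SE was derived from F and the log2 change, and intervals are 95%. The TMM factors ranged from 0.874 to 1.15. Between replicates, the chi-square per degree of freedom was 8.88 to 16.8. Alternatives used limma 3.58.1 and DESeq2 1.42.0. The genes and lists were chosen with earlier results of these data known. All 39 genes are named, with values in every library for the smallest p per role in either step and for Pcna, Mcm2, Ccne1, Ccnb1, Cdk1 and Mki67, and for up to 3 genes per wider list and comparison. Promoters and motifs come from RefSeq, gene positions from GENCODE M21.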

Additional observations from a re-analysis of the deposited data

How the results depend on the processing

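Over the 39 genes and 14 alternative settings, the calls and directions held in 462 of 546 cases for LTα1β2 against vehicle, 532 for LCL161 plus LTα1β2 against LTα1β2 and 536 for LCL161 plus LTα1β2 against vehicle. A direction turned in 7 cases. Scaled by total counts, the log2 change of Ccne1 with LTα1β2 was -4.79e-05, and against vehicle those of E2f1 and Pcna with both agents were -0.088 and -0.172. Without LTα1β2 replicate 1, Cdt1, Mcm3 and Mcm6 were at 0.0261, 0.0886 and 0.0463 with LTα1β2, and leaving out each library gave ranges of -0.331 to 0.0261, -0.268 to 0.0886 and -0.214 to 0.0463. For E2f1 against vehicle the range was -0.104 (without LCL161 replicate 2) to 0.439 (without LCL161 replicate 1). Scaling by total counts also raised the S-phase genes called with LTα1β2 from 5 to 10, while the calls over all genes rose from 4401 to 5565. Leaving out each library in turn gave 1930 to 4933 genes called among all genes for LTα1β2 against vehicle, 2 to 6 S-phase genes and 8 to 24 mitotic genes. It gave 2332 to 4604 genes for the LCL161 step and 4885 to 7285 for LCL161 plus LTα1β2 against vehicle. A group left with 1 library is assumed to vary like the others, and these fits hold fewer samples.

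The replicate numbers are shared between groups, but the labels do not say what they mark, and the deviations of same-numbered libraries correlated at 0.14, 0.09 and 0.16. With the replicate block, 5 S-phase and 15 mitotic genes were called for LTα1β2 against vehicle, beside 4144 of all 18812 genes. For the LCL161 step 12 and 24 were called, beside 4629 of all genes. For LCL161 plus LTα1β2 against vehicle 12 and 25 were called, beside 7308 of all genes. The calls lost under the block were those of Cdca8, Mki67 and Nusap1 with LTα1β2 and of Mki67 in the LCL161 step, and that of Ttk with LTα1β2 was gained. The 2 libraries per group limit the precision, and the Mcm2 change with LTα1β2 lay near the threshold, called lower in 6 of the 14 settings.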
